A study of Mus musculus with 8 samples.

Results

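Bile acid synthesis and its feedback were followed in mouse liver through 10 genes: Cyp7a1, Cyp8b1, Cyp27a1, Cyp7b1, Slc27a5, Baat, Nr1h4, Nr0b2, Fgfr4 and Klb. They were chosen by name, through every array probe whose RefSeq transcript belongs to one of them, which gave 12 probes. The 10 genes stand among 18316 genes that the array could name, and all 10 passed the signal filter that left 14142 genes to test. The livers came from mice of strain 129/SV/B6 that were Mxcre- or Mxcre+, taken at 0, 24, 36 and 48 h after partial hepatectomy (PHx), the removal of part of the liver. Mxcre- livers are the Survivin wild type and Mxcre+ livers the Survivin-deleted ones in the series' design, Survivin being the product of Birc5. All 8 groups, 0 h included, shared poly(IC) given 1 week before, and irradiation with a bone marrow transplant 2 months before. Each group had 1 array, so no group has a spread of its own, and whether an array carried RNA of 1 animal or of several is not stated. Mx-Cre is switched on by interferon, which poly(IC) induces, and it is not restricted to hepatocytes. Both sexes are named in the labels but not assigned to samples, and 1 note there puts the analysis later than the titles do. The times used here are those of the titles.

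Hepatocytes turn cholesterol into bile acids by a classical route that starts with Cyp7a1 and by an alternative route through Cyp27a1 and Cyp7b1. Cyp8b1 diverts the intermediates to cholic acid, and Slc27a5 and Baat join the finished acid to taurine or glycine. Bile acids returning from the gut switch synthesis off: they bind the nuclear receptor FXR (Nr1h4), which raises the repressor SHP (Nr0b2) in liver and the hormone FGF15 in ileum, and FGF15 acts on hepatocytes through Fgfr4 with its partner Klb.

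SHP acts on Cyp7a1 and Cyp8b1 through the activators LRH-1 (Nr5a2) and HNF4 (Hnf4a), and the members' promoters were therefore searched for their motifs. RefSeq promoter windows (assembly GRCm38.p6, 250 bases before the start) were matched for 6 of the 10 genes: Cyp27a1, Cyp8b1, Fgfr4, Klb, Nr0b2 and Nr1h4. The windows of Cyp27a1 and Nr1h4 lie within the span of their genes, so they precede an inner start and not the outermost one. The 2 that hold an LRH-1 motif are printed in the direction of the gene, with the motif letters in capitals. The first lies at chr9:121916306-121916555 on the minus strand and the second at chr4:133553126-133553375 on the plus strand.
Cyp8b1: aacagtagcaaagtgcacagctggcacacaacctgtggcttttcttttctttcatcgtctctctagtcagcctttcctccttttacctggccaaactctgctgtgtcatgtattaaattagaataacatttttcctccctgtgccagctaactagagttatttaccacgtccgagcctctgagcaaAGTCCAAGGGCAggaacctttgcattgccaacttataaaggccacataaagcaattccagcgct
Nr0b2: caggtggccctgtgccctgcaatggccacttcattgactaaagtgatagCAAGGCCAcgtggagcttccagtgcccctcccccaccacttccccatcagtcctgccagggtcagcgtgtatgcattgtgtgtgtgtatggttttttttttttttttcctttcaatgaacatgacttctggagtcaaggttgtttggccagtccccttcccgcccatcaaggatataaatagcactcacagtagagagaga
In Cyp8b1 the capitals run together because the HNF4 core AGTCCA, 64 to 59 bases before the start, overlaps the LRH-1 match CAAGGGCA, 60 to 53 bases before it. In Nr0b2 they mark the LRH-1 match CAAGGCCA, 201 to 194 bases before the start. Klb holds the HNF4 core 19 to 14 bases before its start. Of 32851 promoter windows of this length, 5.53% hold the LRH-1 motif (CAAGGNCA) and 11.5% the HNF4 core, counting both strands. The D-box (TTANGTAA, 2.06% of windows) and the inverted FXR repeat (half-site AGGTCA on both sides of 1 base, 0.00609% of windows) were found in none of the 6 windows. A match describes letters in a window and is no measure of binding.

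All values are log2 intensity relative to the 75th percentile of the same array, so 0 is that percentile and 1 unit is 2-fold. Between 60.2% and 66.0% of the 43379 spots of an array were well above background, and the number of arrays limits the precision. Birc5 checks the labels: in Mxcre+ liver it was 5.84-fold, 7.71-fold, 8.63-fold and 75.2-fold lower than in Mxcre- liver at the 4 times in order. The arrays of 0 and 24 h shared 1 slide and those of 36 and 48 h another, with both genotypes on each. Differences of 36 and 48 h from 0 h therefore cannot be told apart from the slide, whereas 24 h against 0 h, 48 h against 36 h and the genotype comparison lie within slides. The arrays also stood apart in Y-linked transcripts (Ddx3y, Eif2s3y, Kdm5d and Uty). Their mean was -6.39 and -6.09 at 0 h, with none above background, and -0.86 and -1.37 at 24 h, for Mxcre- and Mxcre+. At 36 and 48 h it was -1.56 and -0.76 in Mxcre- liver but -6.47 and -6.63 in Mxcre+ liver, again with none above background. The comparisons of 24, 36 and 48 h with 0 h thus also differ in Y-linked signal, those of 36 and 48 h in Mxcre- liver only. So do the genotype pairs of 36 and 48 h. Xist, the transcript of the inactive X, was above background on all 8 arrays. It lay between 2.318 and 4.371 where Y-linked signal was present and between 5.098 and 5.493 where it was not. The arrays with Y-linked signal thus carried both signals and cannot be read as male only. Whether this came from pooled animals or from transplanted cells was not tested. The 7 measured hepatocyte markers were above background on all 8 arrays, with a mean level of 6.73 to 6.97.

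After hepatectomy Cyp7a1, Cyp27a1, Slc27a5, Baat, Nr1h4 and Klb stood below their 0 h level on every later array of both genotypes, Cyp7a1 by the most. The share of all genes that did so was not counted, and Klb was not called at any time. In the fit over both genotypes, 3 of the 10 genes fell at 24 h (Cyp7a1, Slc27a5 and Nr1h4), and 5 fell at 36 h and again at 48 h (the same 3 with Baat and Cyp27a1). None of the 10 rose at any time. Of all genes tested, 5.26% were called lower and 4.43% higher at 24 h, 8.64% lower and 7.83% higher at 36 h, and 9.6% lower and 8.12% higher at 48 h. The median change of the 10 was -0.98, -1.08 and -1.27 at the 3 times, beside -0.03, -0.06 and -0.08 over all genes. The threshold for a call was 0.05 after Benjamini-Hochberg adjustment over all 14142 genes in limma. With 1 array per group, that p measures how alike a change was in both genotypes, not the spread between animals, and the 3 comparisons share the same 0 h arrays. In bulk tissue, fewer cells of a type and less RNA per cell cannot be told apart.

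**Figure D1:**
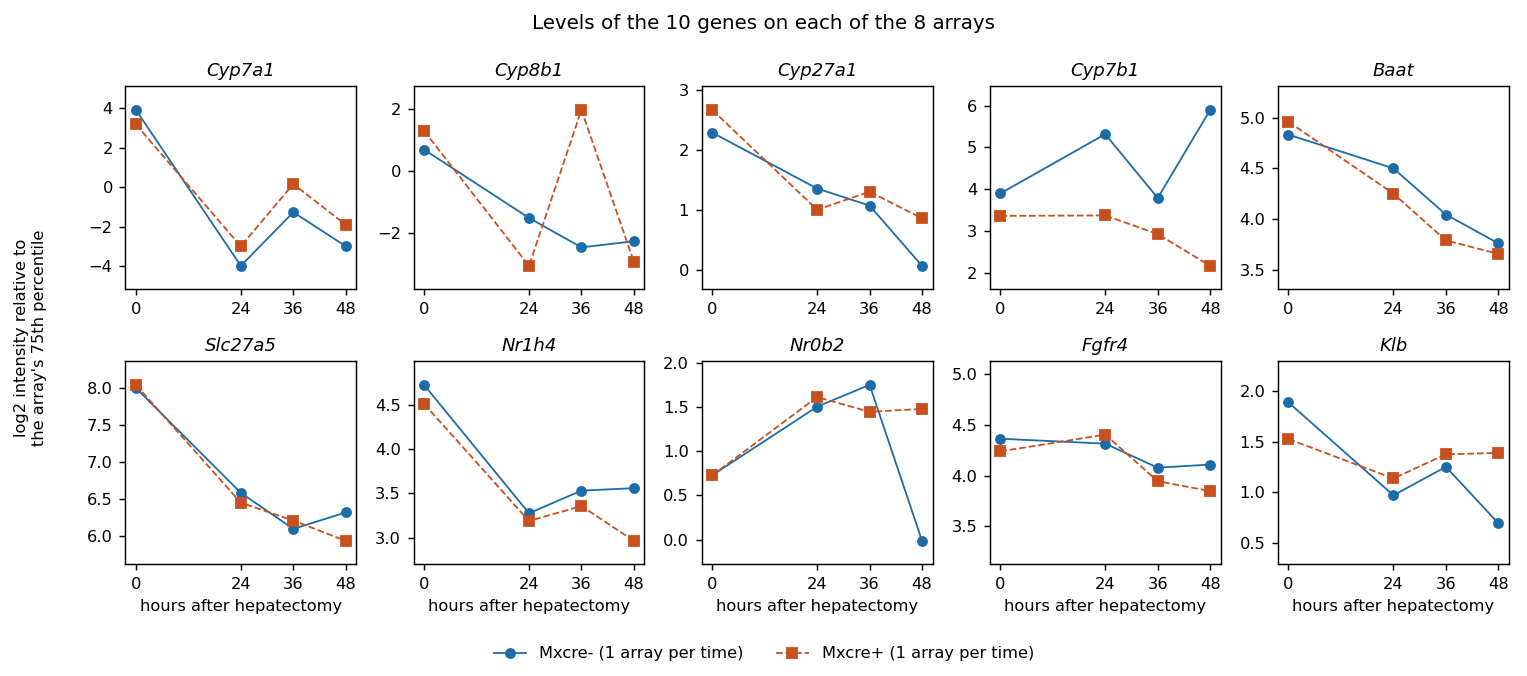
Level of each of the 10 genes on each of the 8 arrays (log2 intensity relative to the array's 75th percentile, 1 array per point) against hours after hepatectomy, for Mxcre- (circles, solid) and Mxcre+ (squares, dashed). Cyp7a1, Cyp27a1, Slc27a5, Baat, Nr1h4 and Klb lie below their 0 h level on every later array. Cyp8b1 in Mxcre+ liver is high at 36 h alone among the later times. Cyp7b1 is lower in Mxcre+ than in Mxcre- liver at each time.

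Cyp7a1 is the rate-limiting enzyme of the classical route. At 0, 24, 36 and 48 h it stood at 3.92, -3.98, -1.26 and -2.99 in Mxcre- liver. The Mxcre+ arrays of the same times read 3.19, -2.99, 0.16 and -1.90. Every later array was thus far below both 0 h arrays, the lowest values were those of 24 h, and in each genotype the 36 h array was the highest of the later 3. In intensity units this is a change from 5135 to 21.8 in Mxcre- liver and from 3184 to 44.8 in Mxcre+ liver over the first 24 h. The fitted change was -7.04 ± 0.55 (SE) at 24 h, a 132-fold fall (limma adjusted p = 0.0179). It was -4.11 ± 0.55 at 36 h (limma adjusted p = 0.0225) and -6.00 ± 0.55 at 48 h (limma adjusted p = 0.00985). Between 36 and 48 h the level differed by -1.90 ± 0.55, which was not called (limma adjusted p = 0.47). No member was called in that comparison, where 0.106% of all genes were called in either direction.

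A second, dimmer Cyp7a1 probe (A_51_P290981, beside A_52_P84027) gave the same order of times. It read 1.50, -5.60, -2.93 and -5.05 at 0, 24, 36 and 48 h in Mxcre- liver and 0.88, -5.21, -1.70 and -3.45 in Mxcre+ liver. It was well above background on 5 of 8 arrays, and not on both 24 h arrays or the Mxcre- array of 48 h. Against the lowest signal above background there, the fall in Mxcre- liver was at least 61.0-fold at 24 h and at least 63.3-fold at 48 h. In Mxcre+ liver it was at least 39.9-fold at 24 h. Both probes therefore show a fall of more than 30-fold at 24 h in each genotype. Background correction by normexp adds an offset to every signal, which weighs most on dim ones, and was followed by quantile normalisation. With both, the 24 h change of the brighter probe was smaller at -4.18 (limma adjusted p = 0.00681).

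Cyp8b1, the sterol hydroxylase that leads to cholic acid, did not pass the test at any time. In Mxcre- liver it stood at 0.70, -1.51, -2.46 and -2.26 at 0, 24, 36 and 48 h. In Mxcre+ liver it stood at 1.30, -3.05, 1.98 and -2.93 at the same times. It was below its 0 h level on 5 of the 6 later arrays, and the Mxcre+ array of 36 h was the highest of all 8. The fitted differences from 0 h were -3.28 ± 1.47 at 24 h, -1.24 ± 1.47 at 36 h and -3.59 ± 1.47 at 48 h (limma adjusted p = 0.209, 0.562 and 0.151). The 36 h value was -3.72 without the Mxcre+ array of 36 h and 1.25 without the Mxcre- one.

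Cyp27a1, the mitochondrial sterol hydroxylase that oxidises the side chain and opens the alternative route, fell at 36 and 48 h. Its levels at 0, 24, 36 and 48 h were 2.29, 1.36, 1.07 and 0.07 in Mxcre- liver and 2.67, 1.00, 1.30 and 0.86 in Mxcre+ liver. All 6 later arrays lay below both 0 h arrays, and the Mxcre- array of 48 h was the lowest. The fitted change was -1.30 ± 0.28 at 24 h, short of the threshold (limma adjusted p = 0.0556), -1.29 ± 0.28 at 36 h (limma adjusted p = 0.0453) and -2.02 ± 0.28 at 48 h (limma adjusted p = 0.0184).

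Cyp7b1, the oxysterol hydroxylase of the alternative route, did not follow the other enzymes. In Mxcre- liver it stood at 3.90, 5.32, 3.79 and 5.90 at 0, 24, 36 and 48 h, so the arrays of 24 and 48 h were the highest of all 8. In Mxcre+ liver it stood at 3.37, 3.38, 2.93 and 2.17, with the lowest value at 48 h. The fitted differences from 0 h, 0.71, -0.27 and 0.40 at the 3 times (SE 0.80 each), were not called, with limma adjusted p of 0.596, 0.823 and 0.743.

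Of the conjugating enzymes, Slc27a5 fell at all 3 times and Baat at 36 and 48 h. Slc27a5, which activates bile acids with coenzyme A, stood at 7.997, 6.58, 6.09 and 6.32 in Mxcre- liver and at 8.04, 6.45, 6.21 and 5.93 in Mxcre+ liver at 0, 24, 36 and 48 h. The 6 later arrays all lay more than 1 unit below both 0 h arrays. The fitted change was -1.504 ± 0.16 at 24 h, -1.87 ± 0.16 at 36 h and -1.89 ± 0.16 at 48 h (limma adjusted p = 0.0217, 0.0162 and 0.00879), a fall of 2.84-fold, 3.65-fold and 3.72-fold. Baat, which joins the activated acid to the amino acid, was lower at each time than at the one before, with levels of 4.83, 4.50, 4.04 and 3.76 in Mxcre- liver and 4.96, 4.25, 3.79 and 3.66 in Mxcre+ liver. Its change was -0.52 ± 0.15 at 24 h, which was not called (limma adjusted p = 0.0896), -0.98 ± 0.15 at 36 h (limma adjusted p = 0.0252) and -1.19 ± 0.15 at 48 h (limma adjusted p = 0.0151). A second Baat probe read 1.65, 1.41, 1.07 and 0.54 in Mxcre- liver and 2.06, 1.24, 0.77 and 0.68 in Mxcre+ liver, in the same order of times.

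**Figure D2:**
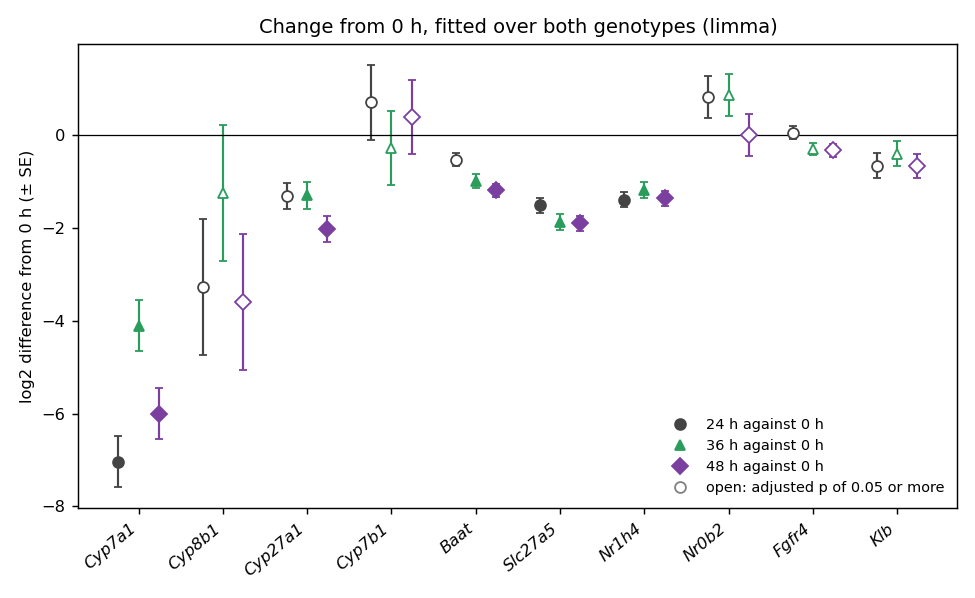
Fitted log2 difference of 24 h (circles), 36 h (triangles) and 48 h (diamonds) from 0 h for each of the 10 genes, over both genotypes, with its standard error from limma; filled symbols passed an adjusted p of 0.05 and open ones did not. Cyp7a1 at -7.04, -4.11 and -6.00 lies below the other 9 genes at each time, and Cyp8b1 and Cyp7b1 have the widest error bars.

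Among the feedback genes, only Nr1h4 passed the test. Nr1h4 encodes FXR, the bile acid sensor. It stood at 4.73, 3.28, 3.53 and 3.56 in Mxcre- liver and at 4.51, 3.19, 3.36 and 2.96 in Mxcre+ liver at 0, 24, 36 and 48 h. The later arrays did not overlap the 0 h arrays. The fitted change was -1.39 ± 0.17 at 24 h, -1.18 ± 0.17 at 36 h and -1.36 ± 0.17 at 48 h (limma adjusted p = 0.0237, 0.0236 and 0.0146), between 2.26-fold and 2.62-fold lower.

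Nr0b2 encodes SHP, the repressor that FXR induces. It stood at 0.73, 1.50, 1.75 and -0.02 in Mxcre- liver and at 0.73, 1.61, 1.45 and 1.48 in Mxcre+ liver at 0, 24, 36 and 48 h. The 0 h arrays were equal to the second decimal, 5 of the 6 later arrays were higher, and the Mxcre- array of 48 h was the lowest of all 8. The differences from 0 h, 0.83 ± 0.46, 0.87 ± 0.46 and 0.01 ± 0.46, were not called (limma adjusted p = 0.288, 0.223 and 0.994).

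Fgfr4, the FGF15 receptor, lay between 3.85 and 4.40 over the 8 arrays. It differed from 0 h by 0.06, -0.29 and -0.32 at 24, 36 and 48 h (SE 0.13 each), none of them called (limma adjusted p = 0.81, 0.184 and 0.157). Klb, the co-receptor, stood at 1.89, 0.97, 1.25 and 0.70 in Mxcre- liver and at 1.53, 1.14, 1.38 and 1.39 in Mxcre+ liver at 0, 24, 36 and 48 h. All 6 later Klb values lay below both 0 h values, yet the differences of -0.65, -0.39 and -0.66 (SE 0.26 each) were not called (limma adjusted p = 0.174, 0.316 and 0.142).

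The counts of called genes depended on single arrays, both over all genes and among the 10. For each difference from 0 h, every fit without 1 array called fewer of all genes than the reported fit, in both directions. In the 24 h fits that called none of the 10, no gene of the array was called. The counts that follow are those of the 10 genes. At 24 h the count was 0 without the Mxcre+ array of 0 h or either 24 h array, and 1 without the Mxcre- array of 0 h or either 36 h array. At 36 h it was 0 without either 24 h or either 36 h array, 1 without the Mxcre+ and 2 without the Mxcre- array of 0 h, and 3 without either 48 h array. At 48 h it was 0 without the Mxcre- array of 48 h, 1 without the Mxcre+ array of 0 h or of 48 h, and 3 without the Mxcre- array of 0 h. No called change turned its sign in any of these fits. With the Y-linked mean as a covariate the Cyp7a1 value at 24 h was -5.88 (limma adjusted p = 0.105). No gene of the 10 was called at 24 h in that fit, and 3 were at 36 h. Of all genes, it called 1 at 24 h, and 573 higher and 460 lower at 36 h. Of 7 female-biased liver genes, 3, 1 and 3 were called lower at 24, 36 and 48 h, beside 5.26%, 8.64% and 9.6% of all genes. None of the 7 was called higher, and none of 6 male-biased liver genes was called at any time. The part of sex or Y-linked signal in the time differences was not tested beyond the covariate fit.

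Markers of other liver cells changed over the same times. Of 5 cholangiocyte markers, Krt7, Sox9 and Spp1 rose at each time, Sox9 by 2.83, 2.11 and 2.40. Their mean level went from -1.11 and -1.53 at 0 h to between -0.16 and 0.34 on the later arrays. T and NK cell markers had 1, 3 and 2 of 6 called lower at 24, 36 and 48 h, and B cell markers 0, 3 and 2 of 4. Cd3g and Klrd1 were above background at 0 h only, and Ms4a1 at 0 h and on the Mxcre- array of 48 h. Fitted falls of these markers thus rest in part on values not above background. Of the 7 hepatocyte markers only Ttr was called, and it fell by 1.17 at 24 h. The part of these cells in the differences of the 10 genes was not tested.

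Between genotypes, the question is whether Survivin-deleted liver differed from wild type in these genes. No member was called for genotype over the 4 times, and neither was any other gene: limma called 0.0% of all genes, with 931 genes and 1 member, Cyp7b1, at an unadjusted p under 0.05. Birc5, at least 5.84-fold lower in Mxcre+ liver at each time, was thus not called either. The lack of calls therefore cannot show that the genotypes were alike in these genes. For the test of whether the genotype difference changed after hepatectomy, 0.17% of all genes were called and no member was. Single pairs of arrays have no test and are given by size. Of the members, 0, 2, 2 and 3 differed by 2-fold or more at 0, 24, 36 and 48 h. The same held for 3.75%, 1.98%, 4.55% and 5.66% of all genes measured on both arrays at these times.

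**Figure D3:**
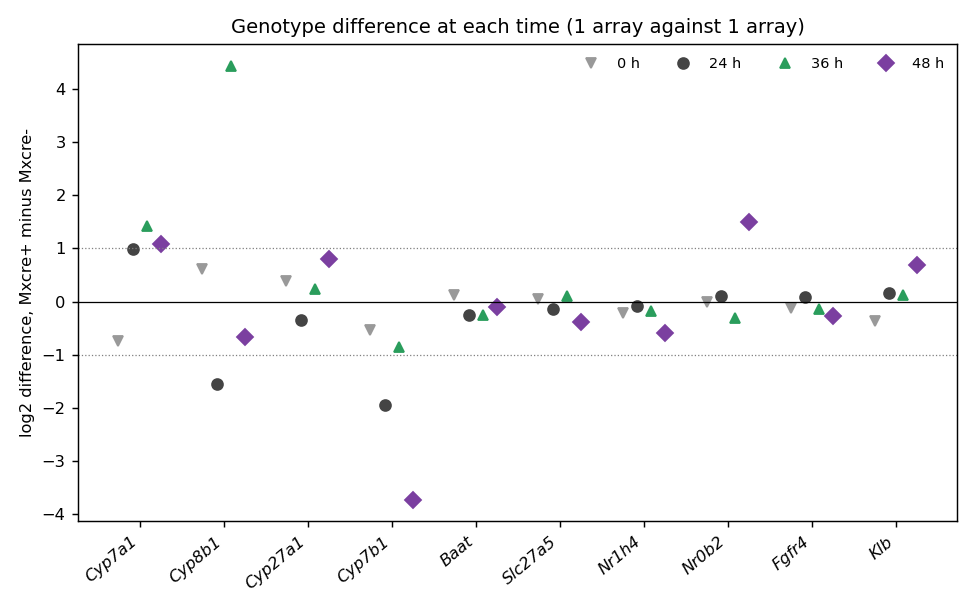
Log2 difference of the Mxcre+ from the Mxcre- array at 0, 24, 36 and 48 h for each of the 10 genes, 1 array against 1 array with no error bar; dotted lines mark 2-fold. Cyp8b1 at 36 h (4.43) and Cyp7b1 at 48 h (-3.72) lie furthest from 0, and Baat, Slc27a5, Nr1h4 and Fgfr4 stay inside the dotted lines at every time.

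Cyp8b1 had the widest single difference. At 36 h it stood at 1.98 in Mxcre+ and -2.46 in Mxcre- liver, a difference of 4.43 that ranked 1 of 12735 genes from the highest. The differences of 0, 24 and 48 h were 0.60, -1.55 and -0.66, so its sign was not steady. Averaged over the times it was 0.71 ± 1.04 (limma adjusted p = 0.868), and without either 36 h array it was -0.54. The deposited, separately normalised values gave 4.36 at 36 h. Normexp correction gave 2.38 there and -0.41 at 24 h, where the signal was dim. On the same Mxcre+ array the mean of 7 neutrophil markers was 0.86, against -1.16 on its Mxcre- pair, and Y-linked transcripts were not above background. The neutrophil mean was also higher in Mxcre+ than in Mxcre- liver at 48 h (1.50 against -1.15). It was lower in Mxcre+ liver at 0 h (-2.59 against 0.61) and at 24 h (-1.61 against -0.46). The part of neutrophils or of Y-linked signal in the Cyp8b1 values was not tested.

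Cyp7b1 was lower in Mxcre+ than in Mxcre- liver at all 4 times, by 0.54, 1.94, 0.86 and 3.72 (log2) at 0, 24, 36 and 48 h. The 48 h difference ranked 8 of 12900 genes from the lowest, and that of 24 h ranked 35 of 12864. The fitted difference was -1.77 ± 0.57, with an unadjusted p of 0.0276 and a limma adjusted p of 0.751. Cyp7b1 is known to be higher in male than in female mouse liver. The 6 measured male-biased liver genes had a median difference of 0.30, -0.59, -1.57 and -3.71 at the 4 times, so their sign was that of Cyp7b1 at 24, 36 and 48 h but not at 0 h. The 7 measured female-biased genes had medians of -0.04, -0.12, -0.02 and 0.35. No gene of either list was called for genotype in limma. Over the 8 arrays Cyp7b1 correlated with the Y-linked mean at r = 0.72, a description over arrays that share slides and genotypes. This was not particular to Cyp7b1: r was -0.81 for Klb, -0.74 for Cyp7a1, -0.64 for Cyp8b1 and -0.57 for Cyp27a1. The remaining members lay between -0.39 and 0.37. With the Y-linked mean as a covariate the fitted genotype difference of Cyp7b1 was -1.04. It was -1.24 within the slide of 0 and 24 h and -2.29 within that of 36 and 48 h. At 24 h all 6 male-biased genes were lower in Mxcre+ liver, with differences from -0.17 for Cyp4a12b to -4.72 for Hsd3b5. Both arrays of that time had Y-linked signal, with a mean of -1.37 in Mxcre+ and -0.86 in Mxcre- liver. Xist was higher in Mxcre+ liver there, by 0.73. The part of sex in the Cyp7b1 differences was not tested.

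**Figure D4:**
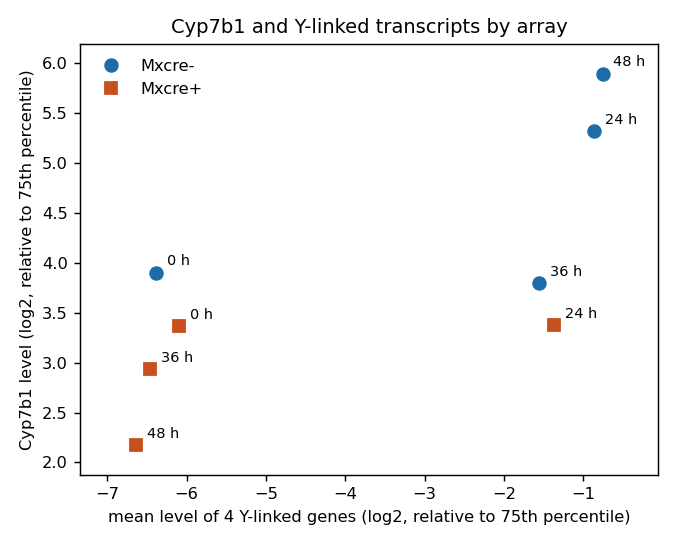
Cyp7b1 level against the mean level of 4 Y-linked genes (both log2 intensity relative to the array's 75th percentile), 1 point per array, labelled by time, for Mxcre- (circles) and Mxcre+ (squares). The 4 arrays without Y-linked signal above background lie between 2.17 and 3.90 for Cyp7b1, and the other 4 between 3.38 and 5.90.

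Cyp7a1 was lower in Mxcre+ than in Mxcre- liver at 0 h, by 0.74, and higher at each later time, by 0.99 at 24 h, 1.43 at 36 h and 1.09 at 48 h. The change of the genotype difference after hepatectomy was 1.90 ± 0.27 and was not called (limma adjusted p = 0.283). The average over times was 0.69 ± 0.39 (limma adjusted p = 0.761). The dimmer probe gave 1.23 at 36 h, and at 48 h, with the Mxcre- array not above background, at least 2.04-fold. Normexp correction gave 0.74 at 36 h and 0.26 at 48 h, under 2-fold at both times.

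Nr0b2 differed between genotypes by less than 0.01, then by 0.11, -0.31 and 1.49, at 0, 24, 36 and 48 h. The 48 h difference, which ranked 120 of 12900 genes from the highest, came from the low Mxcre- array of that time (-0.02, beside 1.48 in Mxcre+ liver). Klb and Cyp27a1 were also lower on that Mxcre- array, by 0.69 and 0.79. The fitted genotype differences were 0.32 ± 0.32 for Nr0b2, 0.16 ± 0.19 for Klb and 0.26 ± 0.20 for Cyp27a1, none called (limma adjusted p = 0.817, 0.84 and 0.787). For Baat, Slc27a5, Nr1h4 and Fgfr4 the genotype difference lay between -0.60 and 0.13 at all 4 times. Their fitted differences were -0.12 ± 0.10, -0.09 ± 0.12, -0.27 ± 0.12 and -0.11 ± 0.10, none called in limma.

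Other genes of the pathway are given by lists, to be read beside the shares of all genes called at each time (between 4.43% and 9.6% in a direction). Of 17 further enzymes, 16 were on the array and tested, and 0 rose and 1 fell at 24 h, 0 rose and 2 fell at 36 h, and 1 rose and 2 fell at 48 h. Their medians were -0.15, -0.04 and -0.14. Cyp2c70, which makes the muricholic acids of mouse bile, fell by 1.06 ± 0.20, 1.36 ± 0.20 and 1.00 ± 0.20 (limma adjusted p = 0.0417, 0.0249 and 0.0349). Akr1d1, the steroid reductase of the ring structure, fell by 1.76 ± 0.39 at 36 h and 1.72 ± 0.39 at 48 h (limma adjusted p = 0.0462 and 0.046). At 48 h Amacr, a racemase of side-chain oxidation, rose by 0.78 ± 0.16 (limma adjusted p = 0.0365).

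Of 23 further regulators, 22 were tested: 1 rose and 2 fell at 24 h, 1 rose and 3 fell at 36 h, and 1 rose and 2 fell at 48 h, with medians of -0.13, -0.22 and -0.47. Dbp, a clock-controlled activator known to act on Cyp7a1, stood at 6.38, 1.71, 4.07 and 3.11 in Mxcre- liver and 5.14, 1.74, 3.17 and 2.66 in Mxcre+ liver at 0, 24, 36 and 48 h. Like Cyp7a1 it was highest at 0 h, lowest at 24 h and higher at 36 than at 48 h in both genotypes. Its fitted change was -4.03 ± 0.33, -2.14 ± 0.33 and -2.87 ± 0.33 (limma adjusted p = 0.0179, 0.026 and 0.0136). The part of Dbp in the Cyp7a1 values was not tested, and the hour of day at which livers were taken is not given in the sources used here. Jun, which bile acids and growth signals induce, rose by 1.68, 1.81 and 1.66 (SE 0.16 each, limma adjusted p = 0.0179, 0.0162 and 0.0108). Tfeb, a lysosomal regulator, fell by 0.60, 0.73 and 0.99 (SE 0.11 each, limma adjusted p = 0.0414, 0.0262 and 0.0135). Fgf15 was near background in liver, above it on 7 of 8 arrays, the exception being the Mxcre+ array of 36 h. Its fitted fall of 1.35 ± 0.24 at 36 h (limma adjusted p = 0.0316) thus rests in part on a value not above background. The ileal marker Fabp6 was above background on 0 of 8 arrays. Nr5a2 and Hnf4a, named here because their motifs were searched, were not called at any time, with changes between -0.75 and 0.18.

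Of 15 bile acid transporters and other FXR targets, 12 were on the array and 11 tested: 2 rose and 1 fell at 24 h, 3 rose and 0 fell at 36 h, and 2 rose and 2 fell at 48 h. Their medians were 0.00, -0.34 and -0.28. Slc51b, a subunit of the basolateral bile acid exporter, stood at -2.30, 1.63, 0.50 and -0.17 in Mxcre- liver and at -2.45, 1.14, 1.74 and 1.01 in Mxcre+ liver at 0, 24, 36 and 48 h. All 6 later arrays lay more than 2 units above both 0 h arrays, and the fitted rise was 3.76 ± 0.51, 3.50 ± 0.51 and 2.79 ± 0.51 (limma adjusted p = 0.0259, 0.0245 and 0.0293). Its partner Slc51a was above background on 0 of 8 arrays. Abcb4, the canalicular phospholipid exporter, rose by 1.51, 1.59 and 1.34 (SE 0.30 each, limma adjusted p = 0.0459, 0.0346 and 0.0429). Slc10a1, the main bile acid importer, fell by 1.75 at 24 h and 1.86 at 48 h (SE 0.32 each, limma adjusted p = 0.0409 and 0.0268). The importer Slco1b2 fell by 1.26 ± 0.24 at 48 h (limma adjusted p = 0.0332), and the surface proteoglycan Sdc1 rose by 0.86 ± 0.19 at 36 h (limma adjusted p = 0.0441). No gene of these 3 lists was called for genotype. The furthest there were Cyp39a1 (0.81 ± 0.69), Ch25h (-0.55 ± 0.51) and Akr1d1 (-0.28 ± 0.28) among enzymes. They were Vdr (-0.66 ± 0.39), Dbp (-0.64 ± 0.23) and Nr1d1 (-0.47 ± 0.42) among regulators, and Slc51b (0.44 ± 0.36), Abcb11 (-0.43 ± 0.29) and Osgin1 (0.34 ± 0.38) among transporters and targets.

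**Figure D5:**
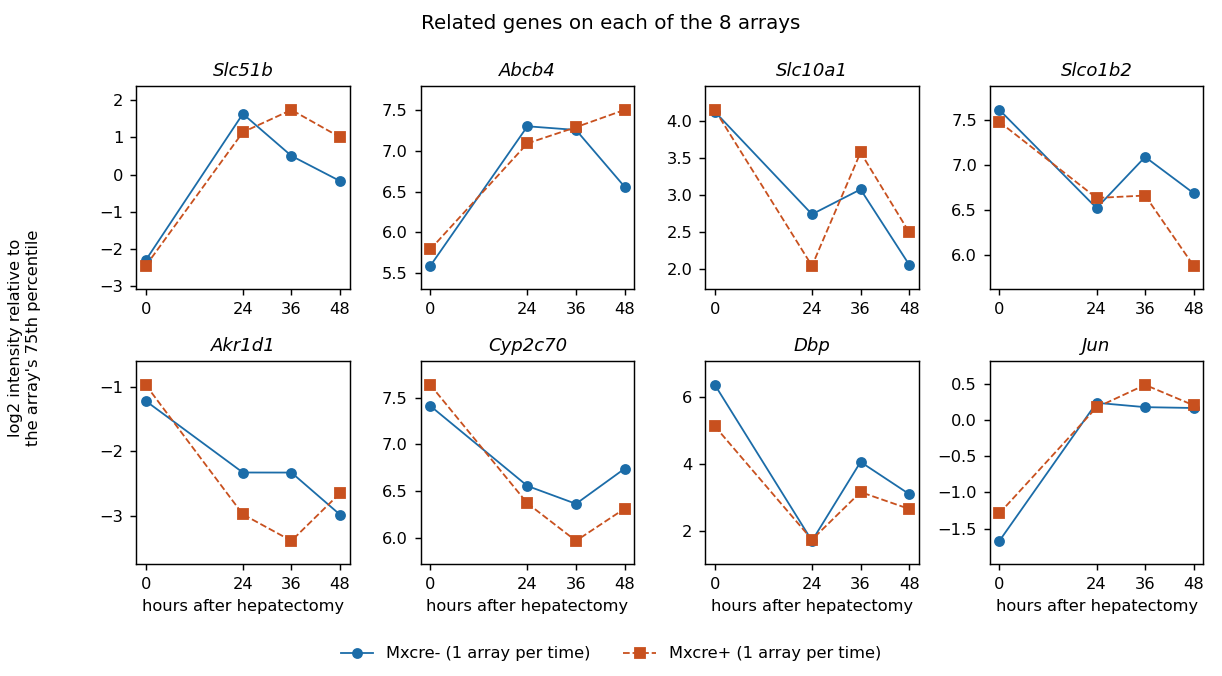
Level of 8 related genes on each of the 8 arrays (log2 intensity relative to the array's 75th percentile, 1 array per point) against hours after hepatectomy, for Mxcre- (circles, solid) and Mxcre+ (squares, dashed). The exporters Slc51b and Abcb4 and the factor Jun lie above their 0 h level on every later array, and the importers Slc10a1 and Slco1b2, the enzymes Akr1d1 and Cyp2c70, and Dbp lie below it.

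The genes whose levels ran most like those of 3 members were found by Pearson's r over the 8 arrays, among 2190 genes that spanned at least 2 units. These are descriptions, and the arrays share slides, times and genotypes. Closest to Cyp7a1 were Inmt (0.98), Upp2 (0.96), Hamp2 (0.95) and Tef (0.95). Inmt stood at 6.59, -0.45, 1.85 and -0.31 in Mxcre- liver and 7.06, -0.0014, 2.22 and 1.78 in Mxcre+ liver at 0, 24, 36 and 48 h. Closest to Cyp8b1 were Tbc1d30 (0.91), Duxbl1 (0.90, above background on 2 arrays), the importer Slc10a1 (0.86) and Nxpe2 (0.84). Closest to Cyp7b1 were Gna14 (0.95), Kcng3 (0.95), Hecw1 (0.94) and Slc26a4 (0.94), the last 3 of them above background on only 4, 2 and 2 arrays.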

How the data were processed

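Total RNA of 8 mouse livers or liver pools, 1 per genotype and time, was labelled with Cy3 and read on Agilent 1-colour arrays. Per the file headers, the deposited spot intensity (processed signal) was background-subtracted by Feature Extraction 10.7.3.1 (10.7 in the submitters' processing notes) and was not normalised between arrays. The deposited matrix holds log2 values of unstated scale; every column had a median of 5.51 and matched its own array, so it was read as quantile-normalised and used as an alternative. Control spots and outlier-flagged spots were left out, and log2 intensity minus the array's 75th percentile was used. Of 41174 probes, 118 had no unflagged spot on at least 1 array and were left out, and 26839 of the rest matched a RefSeq gene of GRCm38.p6 by accession. The brightest probe stood for each of 18316 genes, 6502 of which had several; 14142 were well above background on at least 2 of 8 arrays and were tested. The array files name another genome build, so gene coordinates other than the promoter windows are not given.

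Fits used limma 3.58.1 in R 4.3.3: time as a factor plus genotype (3 residual degrees of freedom), and a second fit with an interaction of genotype and surgery (2). They were run on simulated data with known changes and independent noise, as a check of the size of the estimates. The simulation held no slide or Y-linked difference, so it cannot show how these affect the calls. Summaries and plots used Python 3.11.15, pandas 2.3.3 and matplotlib 3.10.9. Where a member's probe was not above background on the dim side of a comparison of single arrays, its fold is a bound against the lowest signal above background there. Fitted changes use the measured values.

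The members, gene lists, motifs and tests were chosen with earlier results of these data known. All members were named; of other lists, the called genes (at most 6 per list and contrast) or else the 3 of largest size. For Cyp7a1, Cyp8b1 and Cyp7b1 the 4 genes of highest correlation were named. Alternatives covered the normalisation, scaling point, dim-probe filter, probe rule, variance trend, Y-linked covariate, slide and each array left out. Normexp (offset 50) was followed by quantile normalisation. It used median spot signals, a choice made after seeing the files.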

Additional observations from a re-analysis of the deposited data

How the results depend on the processing

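The 13 changes from 0 h that passed the test among the 10 genes kept their direction under every alternative run. Alternatives other than leaving out an array kept 83 of 94 of these calls, and leaving out 1 array at a time kept 43 of 104. The count of called members at 24 h, 3 as reported, was 5 with a variance trend, 0 with the Y-linked covariate and 0 on the slide of 0 and 24 h alone (1 residual degree of freedom), where no gene of the array was called. At 36 h it was 3 in place of 5 with the Y-linked covariate. That fit called 573 of all genes higher and 460 lower at 36 h, in place of 1107 and 1222. Leaving out any 1 array lowered the calls over all genes at 24, 36 and 48 h, which stands beside the count of members. Without 1 array in turn it ranged from 0 to 3 at 24 h, 0 to 3 at 36 h and 0 to 6 at 48 h, and was 0 in the other comparisons.

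Differences that were not called changed sign in some fits. With the Y-linked covariate the genotype difference was -0.17 for Cyp8b1, -0.038 for Nr0b2 and -0.15 for Klb, Cyp7b1 was -0.63 at 24 h and -0.27 at 48 h, and Fgfr4 was -0.11 at 24 h. On the slide of 0 and 24 h alone the genotype difference was -0.47 for Cyp8b1 and -0.10 for Klb. Without 1 array in turn, Cyp7b1 ranged from -0.11 to 1.53 at 24 h, -1.09 to 0.55 at 36 h and -0.90 to 1.71 at 48 h. Cyp8b1 ranged from -3.72 to 1.25 at 36 h, -4.84 to 0.13 between 36 and 48 h, and -0.54 to 1.46 for genotype. Fgfr4 ranged from -0.073 to 0.19 at 24 h, Nr0b2 from -0.77 to 0.79 at 48 h and -0.066 to 0.53 for genotype, Klb from -0.024 to 0.33 and Slc27a5 from -0.16 to 0.0073 for genotype. The cause was not tested.

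Over all genes, scaling to the array's median moved the median change at 36 h from -0.06 to 0.12 and the calls from 1107 higher and 1222 lower to 1860 and 707. The same scaling gave 881 higher and 620 lower in place of 626 and 744 at 24 h, and 1636 and 868 in place of 1149 and 1358 at 48 h. No called member changed direction with it. Normexp gave 1099 higher and 1050 lower at 24 h, the variance trend 1065 and 1080, no dim-probe filter 264 and 316, and the Y-linked covariate 1 and 0. Normexp also brought the single-pair differences of dim signals closer to 0, as given beside them. No pairing of replicates was possible, since each genotype and time had 1 array. The reported fit, with time as a factor, already compares genotypes within each time. Signal near background limits the folds of Cyp7a1 and Cyp8b1.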
